A study of Mus musculus with 14 samples.

Results

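A set of 7 genes for receptors and adhesion molecules that blood stem and progenitor cells use to find, hold and leave their places in the bone marrow were followed: CXCR4, ITGA4, ITGB1, ITGA6, SELPLG, CD44 and S1PR1. They were chosen by name, with earlier results of these data known, as 7 of the 22842 genes present in both count tables of the series. They were read over cell barcodes with at least 500 detected genes and 10000 counts, by day and by marker-gated class of cell. All 7 passed the filter on low counts in every comparison.

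The study combined inducible lineage tracing of endogenous adult blood stem cells in the mouse with single-cell RNA sequencing of the traced cells. Cells that lacked lineage markers and carried the Tom label (Lin- Tom+) were sorted one per well into 96-well plates, and their polyadenylated RNA was sequenced from the 3′ end by a modified Smart-seq2 method. The groups were 1 mouse at day 3 (m4539, 190 cells on 2 plates), 1 mouse at day 10 (m4533, 107 cells on 3 plates) and 3 mice at day 17 (m4528, 288 cells on 4 plates; m605, 143 cells on 2 plates; m606, 189 cells on 2 plates). A further day 17 plate held 93 cells of m605 and m606 together; its cells carry no mouse of origin, and it was given beside the mice but entered no main test. All groups share the Tom label and the depletion of lineage-marked cells. No source used here states the strain, the alleles that drive the label, the age or sex of the mice, or the event from which the days are counted.

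CXCR4 is the receptor for the chemokine CXCL12, which marrow stromal cells secrete and which draws stem cells into the marrow and keeps them there. The integrins are paired adhesion receptors: the ITGB1 chain (beta 1) joins ITGA4 (alpha 4) to form VLA-4, which binds VCAM1 and fibronectin, and joins ITGA6 (alpha 6) to form a laminin receptor. SELPLG encodes PSGL-1, the ligand through which rolling cells catch selectins on vessel walls, CD44 binds hyaluronan, and S1PR1 senses the sphingosine 1-phosphate that is abundant in blood and guides cells out of tissues.

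Of 9357 barcodes, 1010 were kept, and these held 98.6% of all counts. Total counts per mouse lay between 25482791 and 64257177, with median counts per kept cell between 118001 and 286917. Cells were gated to a class by lists of marker genes that contain none of the 7 receptors: 428 cells were HSC-gated (stem-cell markers such as Hlf, Mecom and Procr), 72 megakaryocyte, 130 erythroid, 55 neutrophil, 122 monocyte or dendritic, 17 basophil or mast, and 186 stayed ungated. The 10 genes that led each gated class by fold held at least 4 markers of that class and none of another. The cells were gated by these same markers, so this is no independent check of the classes. For 177 cells the lead was within 0.05 of the limit set for gating. HSC-gated cells made up 92.1% of the cells at day 3, 65.4% at day 10 and 37.2%, 12.6% and 20.6% in the 3 mice of day 17. Levels below are in CPM, the usual scale that divides a gene's counts by the total of the summed cells. For markers of other cell types, 3 cells in all had 3 or more lymphoid, macrophage, or stromal or endothelial markers on. The summed level of 7 stromal or endothelial markers lay between 20.4 and 212 CPM in HSC-gated cells and between 1.12 and 14.6 CPM in erythroid cells, and reached 1008 CPM in ungated cells. The summed level of 6 lymphoid markers lay between 67.9 and 173 CPM in monocyte or dendritic cells, where IGHM was among the leading genes, at most 46.9 CPM in HSC-gated cells and at most 189 CPM in ungated cells. Macrophage markers reached 147 CPM in the 2 megakaryocyte cells of m4539, too few to be tested. They were at most 1.57 CPM in the megakaryocyte cells of the other mice. In the other classes they reached at most 66.6 CPM, in the neutrophil cells of m606. The part of these in the receptor levels was not tested. The same 96 well barcodes recur on the plates, and no 2 plates agreed within sampling noise. The plates were compared on counts pooled over different cells, so this shows only that no plate was entered again as another.

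The called differences lay in the erythroid and the monocyte or dendritic cells. Against HSC-gated cells, erythroid cells had more ITGA4 and less ITGA6, and monocyte or dendritic cells had more SELPLG and more CD44. CXCR4 was sparse in every class, S1PR1 had its highest class mean in HSC-gated cells and ITGB1 in megakaryocyte cells, and for these 3 genes no difference was called. Counts were summed over the cells of a class in a mouse, where at least 10 such cells existed, and were tested with edgeR's quasi-likelihood test with the mouse as a block; a gene is called at a Benjamini-Hochberg adjusted p under 0.05 over all 15354 genes tested. The comparisons with HSC-gated cells share the HSC-gated sums. The 7 genes were chosen with earlier results of these data known, so counts of calls among them are a description. In erythroid against HSC-gated cells, 1 of 7 receptor genes was called higher, where 5.17% of all genes were, and 1 lower, where 5.80% were, and the median log2 difference of the 7 was -0.66 beside -0.05 over all genes. In monocyte or dendritic against HSC-gated cells, 2 of 7 were called higher, where 3.63% of all genes were, and 0 lower, where 3.23% were (6.86% in both directions; median 0.52 for the 7, -0.07 over all genes). Megakaryocyte against HSC-gated cells gave 0 calls among the 7, where 2.33% of genes were called; 3 of the 7 had an unadjusted p under 0.05, and DESeq2 called 2, where it called 8.16% of genes. Neutrophil against HSC-gated cells likewise gave 0 calls in edgeR, where 2.72% of genes were called; 3 had an unadjusted p under 0.05, and DESeq2 called 3, where it called 8.20% of genes. Among the calls over all genes in erythroid cells, 47.1% were higher with the main scaling and 35.7% with DESeq2's size factors, which moved the median of all genes by -0.18 there, so erythroid differences are relative to that shift.

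**Figure D1:**
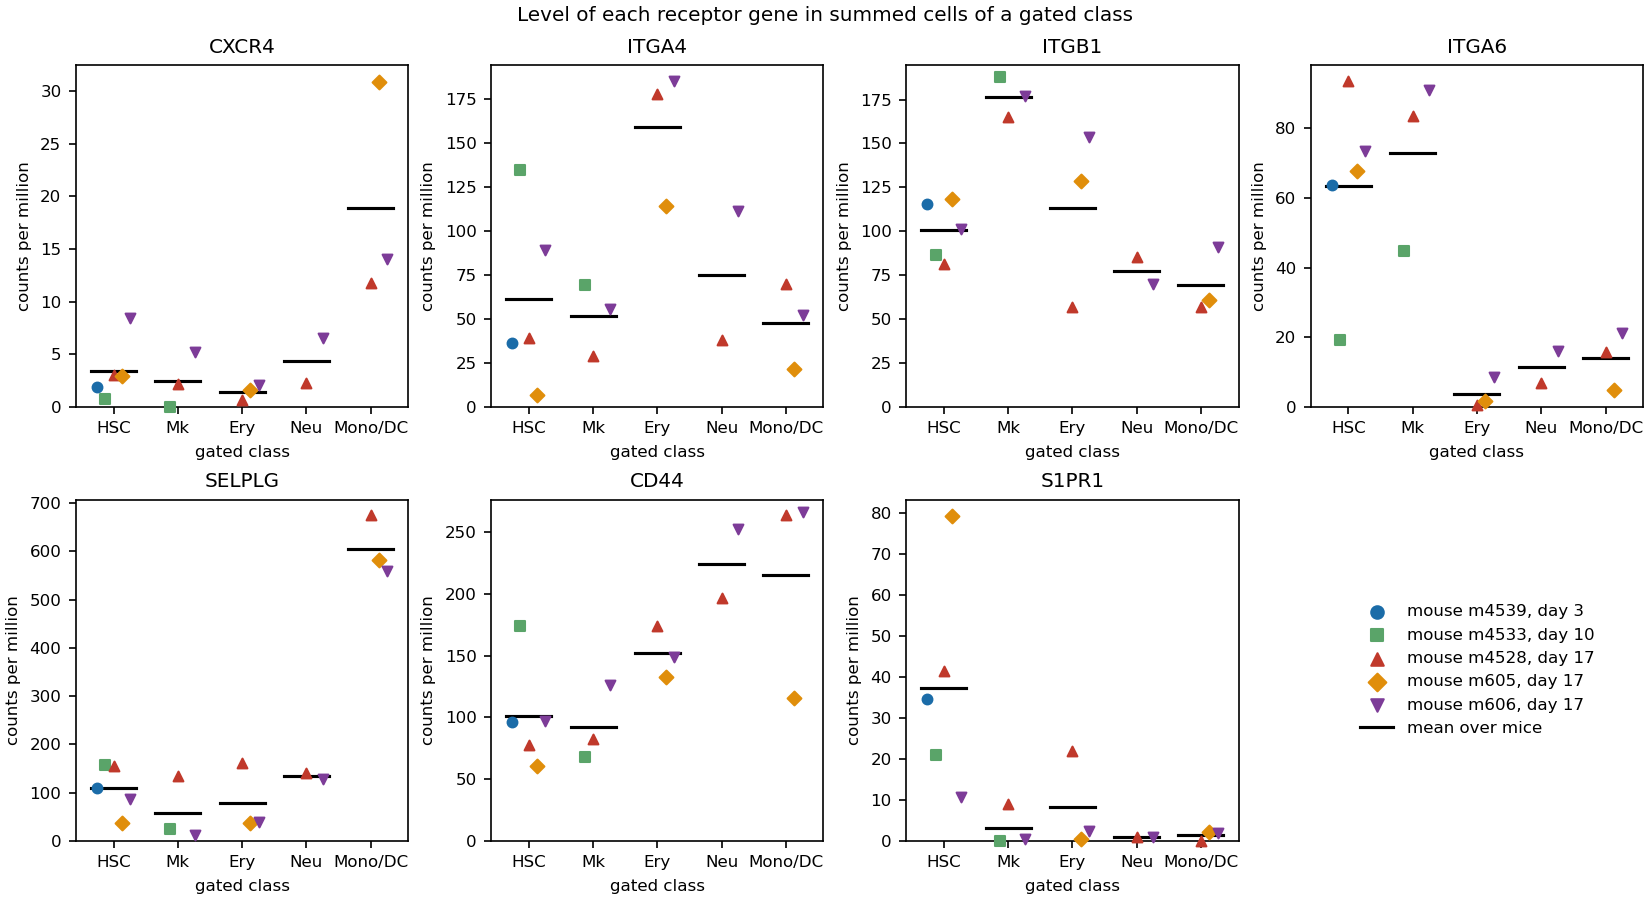
Level of each of the 7 receptor genes, in CPM (vertical axis, linear, from 0), in summed cells of the 5 gated classes (horizontal axis; HSC-gated, Mk megakaryocyte, Ery erythroid, Neu neutrophil, Mono/DC monocyte or dendritic). Each point is 1 mouse with at least 10 such cells and each black line the mean over mice; the 3 SELPLG points of the monocyte or dendritic class, between 558 and 674, lie above all other points of that panel, and the 3 erythroid ITGA6 points lie at or below 8.60.

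CXCR4, the chemokine receptor, was rarely counted in these cells. It lies on the minus strand of chromosome 1 (chr1:128588199-128592293, GRCm38, GENCODE M21). Over all 1010 kept cells its counts were above 10 in only 14 cells, and the highest cell held 88 counts. In HSC-gated cells its level was 1.85 CPM at day 3, 0.694 at day 10, and 3.03, 2.91 and 8.42 in m4528, m605 and m606 at day 17. In monocyte or dendritic cells it was 11.7, 30.9 and 14.04 CPM in the same 3 mice. The monocyte or dendritic values lay above all 5 HSC values and were higher than the HSC-gated cells of the same animal in 3 of 3 mice, but the difference was not called (edgeR quasi-likelihood, adjusted p = 0.302). These sums rested on few cells: 5 of 46, 3 of 28 and 1 of 30 monocyte or dendritic cells had more than 10 counts, and 1 cell held 61.1% of the CXCR4 counts of that class in m605. On the plate that mixes 2 mice the 15 monocyte or dendritic cells had 0.827 CPM, which is 2 counts. Megakaryocyte cells had 2.12 CPM in m4528, 5.15 in m606 and 0 counts in m4533, where 3 counts would be 0.294 CPM. Erythroid cells had 0.613, 1.56 and 2.06 CPM and neutrophil cells 2.25 and 6.49 CPM, so these classes overlapped the HSC-gated range. For shares at equal depth every cell was thinned to 10000 counts. CXCR4 was then found in 7.58% ± 3.81 (SD, n = 3 mice) of monocyte or dendritic cells and 1.51% ± 2.16 (n = 5) of HSC-gated cells. Mean shares were 3.17% in megakaryocyte and 3.10% in erythroid cells. The highest mean share was in neutrophil cells, from 1 of 25 cells in m4528 and 2 of 10 in m606. With more than 10 unthinned counts the mean share was highest in monocyte or dendritic cells, at 8.31%.

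ITGA4, the alpha 4 chain of the VCAM1 receptor VLA-4, rose in erythroid cells. The gene lies on the plus strand of chromosome 2 (chr2:79255426-79333123, GRCm38, GENCODE M21). The bases just before its start are shown because motifs of factors that act in red and myeloid cells can be read in them beside those of CD44, the other member with a called difference for which a sequence was at hand. The sequence is the 250 bases before the RefSeq start (GRCm38.p6, chr2:79255176-79255425, plus strand), and capitals mark CACCC, the letters bound by KLF family factors, or its reverse complement GGGTG.
Itga4: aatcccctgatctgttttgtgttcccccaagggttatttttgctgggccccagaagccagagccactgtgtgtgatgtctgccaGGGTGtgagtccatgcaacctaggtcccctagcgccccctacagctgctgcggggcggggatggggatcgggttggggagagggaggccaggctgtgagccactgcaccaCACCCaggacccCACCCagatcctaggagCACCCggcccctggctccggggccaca
The window holds 4 matches to CACCC on both strands together, 1 of them on the opposite strand, and 0 matches to AGATAA, read by factors of the GATA family, or to GAGGAA, read by PU.1. Of 32851 windows of this length before mouse genes, 52.0% hold CACCC, 9.99% AGATAA and 23.3% GAGGAA on either strand. A match describes letters only.

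In erythroid cells ITGA4 stood at 178 CPM in m4528, 114 in m605 and 185 in m606. In HSC-gated cells it was 36.2 CPM at day 3, 135 at day 10, and 38.8, 6.56 and 89.3 in m4528, m605 and m606 at day 17. Erythroid cells were higher than the HSC-gated cells of the same animal in 3 of 3 mice, while the day 10 HSC value lay above the lowest erythroid value. The log2 difference was 2.29 (SE 0.46, edgeR quasi-likelihood, adjusted p = 0.00604). Against megakaryocyte cells, which had 69.3, 29.0 and 55.6 CPM in m4533, m4528 and m606, erythroid ITGA4 was also higher (log2 difference 2.66, SE 0.54, adjusted p = 0.0133), and in that comparison 1 of the 7 genes was called higher, where 1.14% of all genes were, and 1 lower, where 2.02% were (3.16% in both directions). The mixed plate, which entered neither fit, had 144 CPM in 19 erythroid and 45.8 CPM in 19 HSC-gated cells. The level came from many erythroid cells: 55.0%, 56.8% and 69.0% of them had more than 10 ITGA4 counts, against 8.57%, 24.3%, 10.3%, 0% and 20.5% of HSC-gated cells in the 5 mice. The 6.56 CPM of HSC-gated cells in m605 was 9 counts, 88.9% of them in 1 cell. Depth differed between the classes. In m4528, m605 and m606 median counts per cell were 291680, 197860 and 229824 in erythroid and 98318, 52603 and 62562 in HSC-gated cells. At equal depth the shares with a count were 54.0% ± 8.98 (n = 3) and 15.3% ± 7.65 (n = 5). Neutrophil cells had 38.0 and 111 CPM and monocyte or dendritic cells 69.9, 21.3 and 52.0 CPM, both inside the HSC-gated range. The erythroid call against HSC-gated cells was lost without m4528 (log2 2.15, adjusted p = 0.146), without m605 (1.66, adjusted p = 0.0583) and without m606 (2.80, adjusted p = 0.0985), and without the mouse block it was 1.51 (adjusted p = 0.162). The call was also lost in the fit of the 2 classes alone (2.42, edgeR quasi-likelihood, adjusted p = 0.125). Against megakaryocyte cells it was lost without m4533 (2.59, adjusted p = 0.0596), without m4528 (2.52, adjusted p = 0.323) and without m606 (3.25, adjusted p = 0.226), and without the block it was 1.66 (adjusted p = 0.335).

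ITGB1, the beta 1 chain that both alpha chains pair with, had class means between 69.5 and 177 CPM. It lies on the plus strand of chromosome 8 (chr8:128685654-128733200). Megakaryocyte cells had 188, 165 and 177 CPM in m4533, m4528 and m606, a mean of 177 ± 11.6 (SD, n = 3). HSC-gated cells had 115, 86.2, 81.5, 118 and 101 CPM in m4539, m4533, m4528, m605 and m606. The megakaryocyte values lay above all 5 HSC values, and were higher in 3 of 3 mice that have both. The log2 difference of 0.96 (SE 0.39) had an unadjusted p of 0.0272 and was not called (edgeR quasi-likelihood, adjusted p = 0.207). In the sums of fewer than 10 megakaryocyte cells, which entered no test, m605 stood at 227 CPM and the mixed plate at 234 CPM. The 2 such cells of m4539 stood at 5.20 CPM, which is 3 counts. In m605, 1 cell held 70.1% of the counts. Erythroid cells had 56.7, 128 and 154 CPM, a range that takes in all 5 HSC values, while neutrophil cells had 85.4 and 69.6 CPM and monocyte or dendritic cells 56.8, 60.6 and 91.1 CPM. At equal depth ITGB1 was found in 49.2% ± 1.37 (n = 3) of megakaryocyte and 26.9% ± 5.42 (n = 5) of HSC-gated cells. Mean shares were 38.4% in erythroid, 39.0% in neutrophil, 31.0% in monocyte or dendritic and 39.8% in ungated cells. With more than 10 unthinned counts, the mean share was 52.9% in erythroid and 47.6% in megakaryocyte cells. With each cell thinned before summing, m4528 had 106 CPM in megakaryocyte and 110 CPM in HSC-gated cells. The fitted difference was then 0.54 (edgeR quasi-likelihood, adjusted p = 0.640).

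One plate stood apart for this gene. On plate 8 of m4528, ITGB1 was at 10 CPM over all 51 kept cells, while the other 13 plates lay between 63.1 and 168 CPM; its 20 HSC-gated cells held 3 counts of ITGB1 in all, or 0.920 CPM. Over all cells, plate 8 had 363 CPM of SELPLG and 66.2 CPM of ITGA4, both inside the range of the other 3 plates of that mouse, and 101.5 CPM of CD44, below their 148 to 195. In its HSC-gated cells CD44 was at 14.1 CPM and S1PR1 at 91.4 CPM, the lowest and the highest of the 4 plates. Without plate 8 the megakaryocyte difference of ITGB1 was 0.83 (SE 0.40, adjusted p = 0.291), and the 6 calls among the receptor genes were all made again with the plate left out. Why ITGB1 is low on the plate was not tested.

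ITGA6, the alpha 6 chain of a laminin receptor, had its highest levels in HSC-gated, megakaryocyte and ungated cells. It lies on the plus strand of chromosome 2 (chr2:71745616-71858416). HSC-gated cells had 63.8 CPM at day 3, 19.0 at day 10, and 93.5, 67.8 and 73.6 in m4528, m605 and m606 at day 17. Erythroid cells had 0.368, 1.478 and 8.60 CPM in m4528, m605 and m606, and every erythroid value lay below every HSC value. In erythroid against HSC-gated cells the gene fell by 4.56 on the log2 scale (SE 0.92, edgeR quasi-likelihood, adjusted p = 0.00560), lower in 3 of 3 mice. Against megakaryocyte cells, at 44.8, 83.5 and 90.9 CPM in m4533, m4528 and m606, it fell by 5.20 (SE 0.99, adjusted p = 0.00860). Megakaryocyte and HSC-gated values overlapped, and that difference was not called (adjusted p = 0.731). Neutrophil cells had 6.87 and 16 CPM and monocyte or dendritic cells 15.6, 4.73 and 21.2 CPM, lower than the HSC-gated cells of the same animal in 2 of 2 and 3 of 3 mice. Their log2 differences of -2.78 (SE 0.99, adjusted p = 0.160) and -2.25 (SE 0.80, adjusted p = 0.114) were not called by edgeR, and DESeq2 called both, where it called 8.20% and 10.6% of all genes (adjusted p = 0.00854 and 0.00837). The neutrophil difference was -0.03 (adjusted p = 0.997) with sums of at least 5 cells and -0.24 (adjusted p = 0.937) when barcodes were kept by the limit of 500 genes alone. The 9 neutrophil cells of m605, too few for the main fit, stood at 154 CPM, with 92.9% of their ITGA6 counts in 1 cell. On the mixed plate the 15 monocyte or dendritic cells stood at 67.8 CPM, inside the HSC-gated range.

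The ITGA6 counts came from a minority of cells. Among HSC-gated cells, 10.3%, 5.71%, 14.95%, 11.1% and 15.4% had more than 10 counts in the 5 mice, and 1 cell held 61.0% of the day 10 counts and 87.1% of those of m605. Ungated cells covered the widest range, 198, 12, 79.2, 85.9 and 64.6 CPM in m4539, m4533, m4528, m605 and m606. The erythroid call was lost without m4528 (log2 -3.86, adjusted p = 0.103) and without m605 (-4.04, adjusted p = 0.0649). The call was also lost in the fit of the 2 classes alone (-5.38, edgeR quasi-likelihood, adjusted p = 0.0924). Against megakaryocyte cells it was lost without m4528 (-4.70, adjusted p = 0.167), without m605 (-4.74, adjusted p = 0.0784) and without m606 (-7.00, adjusted p = 0.0792).

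**Figure D2:**
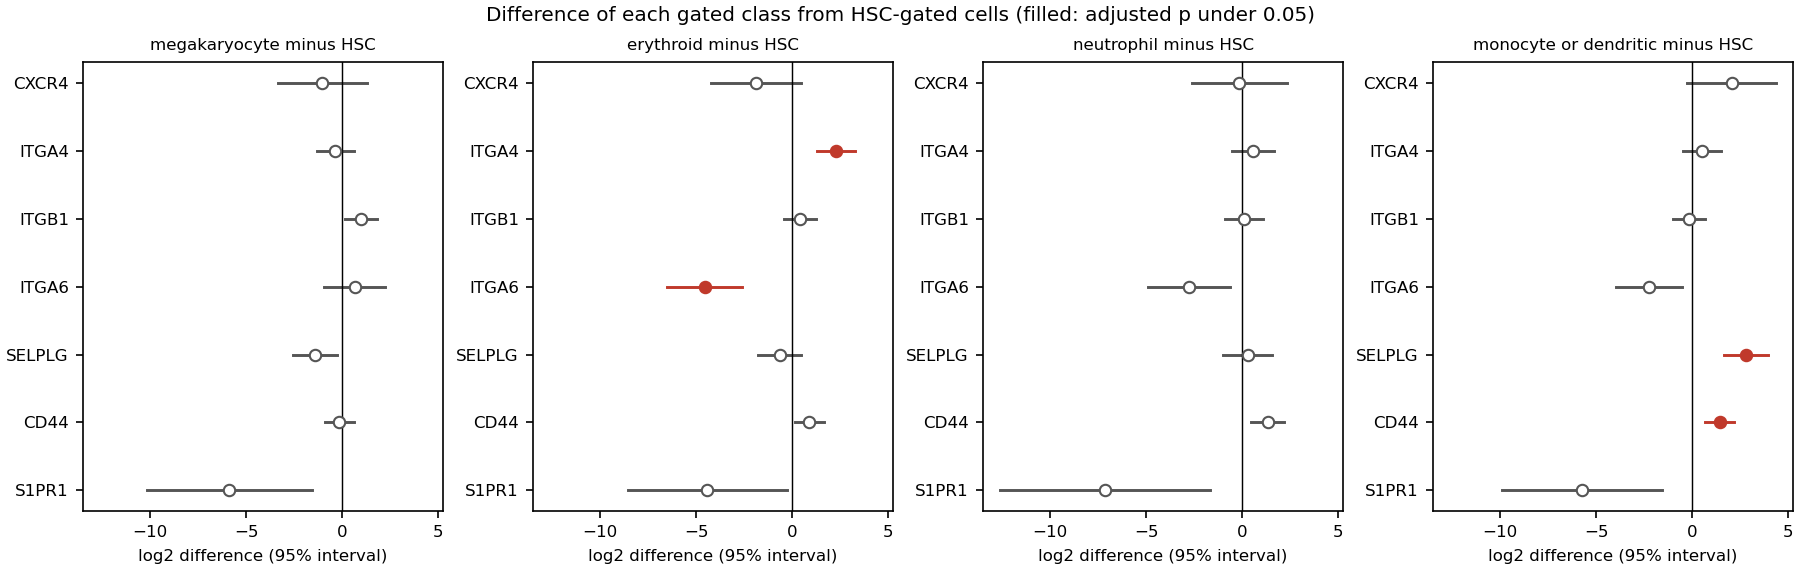
Log2 difference (horizontal axis) of each receptor gene between a gated class and HSC-gated cells, 1 panel per class, from the edgeR quasi-likelihood fit with the mouse as a block. Points are the fitted differences, lines their 95% intervals and filled points those with an adjusted p under 0.05; filled are ITGA4 and ITGA6 in erythroid and SELPLG and CD44 in monocyte or dendritic cells, and the S1PR1 intervals are the widest in each panel.

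SELPLG, which encodes the selectin ligand PSGL-1, rose in monocyte or dendritic cells. It lies on the minus strand of chromosome 5 (chr5:113818536-113832644). These cells had 674 CPM in m4528, 582 in m605 and 558 in m606, a mean of 605.04 ± 61.3 (SD, n = 3), and the mixed plate had 742 CPM. HSC-gated cells had 110, 157, 156, 37.9 and 86.4 CPM in m4539, m4533, m4528, m605 and m606. The lowest monocyte or dendritic value was above every value of the other classes tested. The gene rose by 2.79 on the log2 scale (SE 0.53, edgeR quasi-likelihood, adjusted p = 0.00548), higher in 3 of 3 mice. Nearly all of these cells contributed: 89.1%, 85.7% and 93.3% had more than 10 SELPLG counts, against 16.7% to 25.6% of HSC-gated cells, and no cell held more than 13.7% of the class's counts in any of these mice. At equal depth the shares were 89.1% ± 6.61 (n = 3) and 24.3% ± 2.74 (n = 5).

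Neutrophil cells, the other granulocyte-monocyte class, had 142 and 128 CPM of SELPLG in m4528 and m606, inside the HSC-gated range. The monocyte or dendritic cells of those 2 mice were higher in 2 of 2, with a log2 difference of 2.50 (SE 0.68, unadjusted p = 0.00238) that was not called (edgeR quasi-likelihood, adjusted p = 0.256). In that comparison 0 of the 7 genes were called where 0.195% of all genes were, 1 of the 7 had an unadjusted p under 0.05, and DESeq2 called 1, SELPLG (adjusted p = 0.00794), where it called 2.39% of genes. Megakaryocyte cells had 25.2, 134 and 12.5 CPM, lower than the HSC-gated cells in 3 of 3 mice (log2 difference -1.43, SE 0.54, adjusted p = 0.173, not called). That difference was -2.51 (edgeR quasi-likelihood, adjusted p = 0.152) without m4528 and -3.45 (adjusted p = 0.0887) with a score lead of 0.2 for gating. It was -0.96 (adjusted p = 0.561) without m4533 and -0.84 (adjusted p = 0.604) without the mouse block. With each cell thinned before summing it was -1.04 (adjusted p = 0.372). In m4528 the thinned level was 200 CPM in megakaryocyte and 161 CPM in HSC-gated cells. Of 21 alternatives, only DESeq2's test called the difference (adjusted p = 0.0499). Erythroid cells had 160, 36.1 and 39.1 CPM, with m4528 above all 5 HSC values and the other 2 near the lowest of them. The monocyte or dendritic call was lost without m605 (log2 2.23, adjusted p = 0.0901) and without m606 (2.71, adjusted p = 0.141). It was also lost in the fit of the 2 classes alone with the mouse as a block.

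CD44, the hyaluronan receptor, rose in monocyte or dendritic cells. It lies on the minus strand of chromosome 2 (chr2:102811141-102901665). The 250 bases before its RefSeq start (GRCm38.p6, chr2:102901666-102901915, read 5′ to 3′ on the minus strand) are shown for comparison with those of Itga4. Capitals mark AGATAA and the reverse complement of GAGGAA.
Cd44: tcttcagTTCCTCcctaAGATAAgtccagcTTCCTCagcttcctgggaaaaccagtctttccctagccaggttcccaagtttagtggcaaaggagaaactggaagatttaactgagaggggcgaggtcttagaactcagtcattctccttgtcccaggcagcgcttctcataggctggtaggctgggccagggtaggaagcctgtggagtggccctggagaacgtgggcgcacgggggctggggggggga
The window holds 1 AGATAA, between 2 GAGGAA matches on the opposite strand, and 0 matches to CACCC. These letters do not overlap one another.

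Monocyte or dendritic cells had 264, 116 and 266 CPM of CD44 in m4528, m605 and m606, and the mixed plate had 269. HSC-gated cells had 96.0, 174, 77.9, 60.5 and 97.0 CPM in m4539, m4533, m4528, m605 and m606, so the day 10 HSC value lay above the lowest monocyte or dendritic value. The gene rose by 1.43 on the log2 scale (SE 0.35, edgeR quasi-likelihood, adjusted p = 0.0240), higher in 3 of 3 mice. Neutrophil cells had 197 and 253 CPM, above all 5 HSC values and higher in 2 of 2 mice, with a log2 difference of 1.32 (SE 0.40, adjusted p = 0.0960) that was not called. Erythroid cells had 174, 132 and 149 CPM, higher than HSC-gated cells in 3 of 3 mice (log2 difference 0.89, SE 0.35, adjusted p = 0.124, not called). Megakaryocyte cells, at 67.7, 82.5 and 126 CPM, lay inside the HSC-gated range. At equal depth CD44 was found in 60.3% ± 10.01 of monocyte or dendritic (n = 3), 58.0% ± 2.83 of neutrophil (n = 2), 57.3% ± 6.75 of erythroid (n = 3), 37.0% ± 9.99 of megakaryocyte (n = 3) and 22.2% ± 5.43 of HSC-gated cells (n = 5). The first 3 classes do not differ beyond their spread. The monocyte or dendritic call was lost without m4528 (log2 1.004, adjusted p = 0.405), without m605 (1.58, adjusted p = 0.0643), without m606 (1.402, adjusted p = 0.309) and without the mouse block (1.28, adjusted p = 0.0605). It was also lost where each cell was thinned to 10000 counts before summing, so that cells weigh equally (1.12, adjusted p = 0.101). In the fit of the 2 classes alone it was lost as well.

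**Figure D3:**
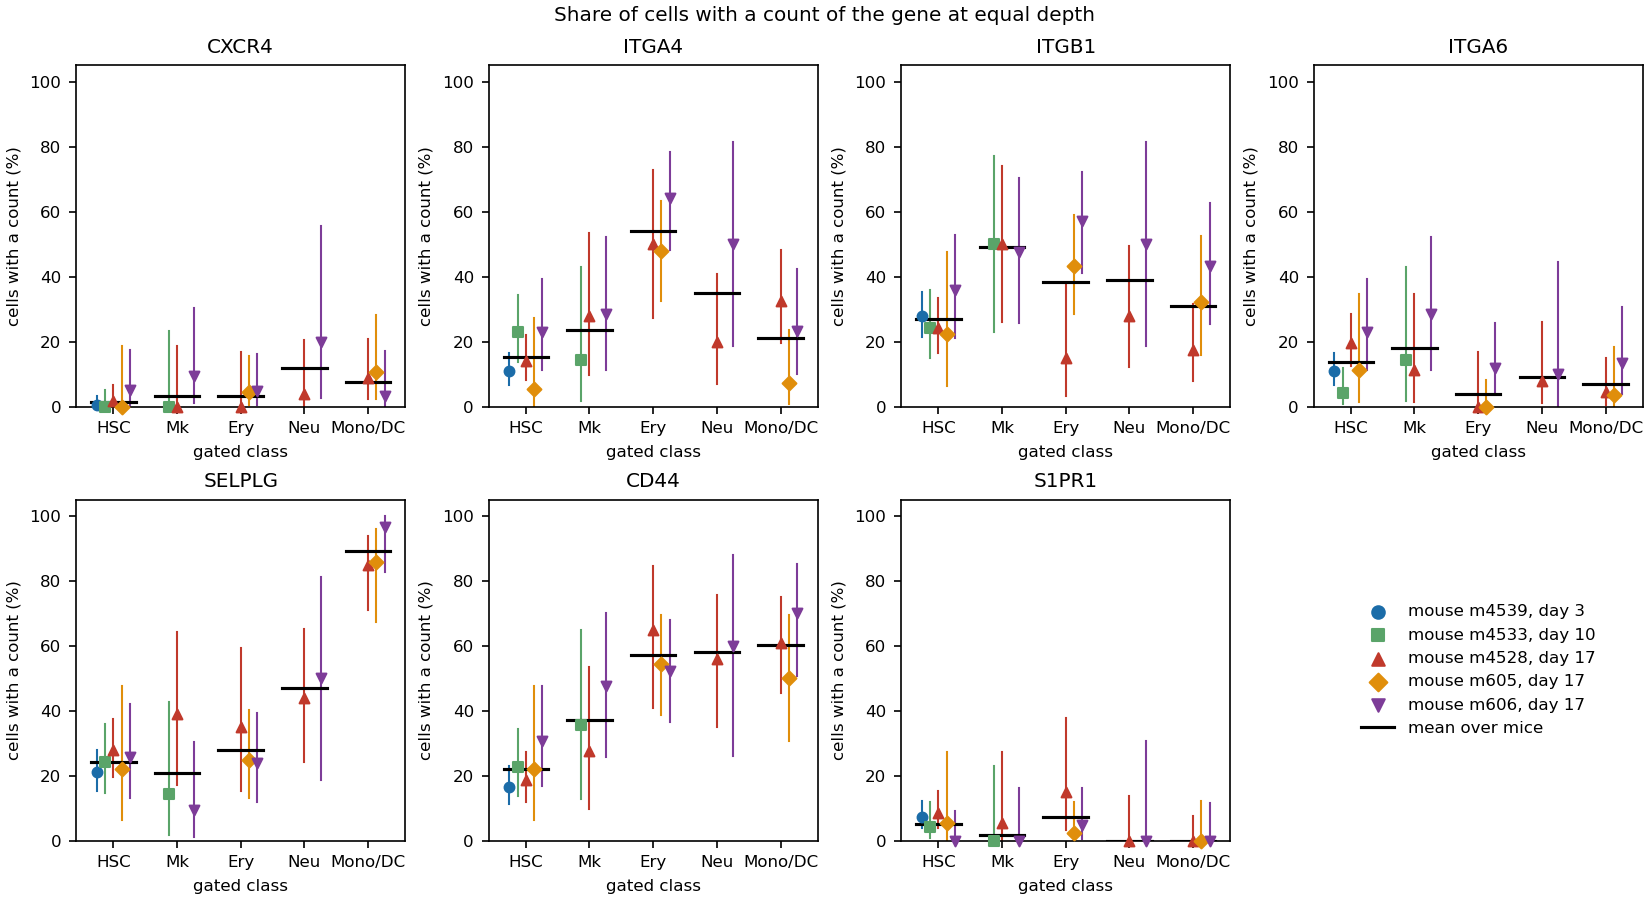
Share of cells with at least 1 count of each receptor gene after every cell was thinned to 10000 counts (vertical axis, percent), by gated class and mouse. Points are mice with at least 10 cells of the class, thin lines exact 95% binomial intervals over cells and black lines the mean over mice; SELPLG reaches 84.8% to 96.7% in monocyte or dendritic cells, and S1PR1 is at 0% in all neutrophil and monocyte or dendritic points.

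S1PR1, the receptor for the lipid that guides cells into blood, had its highest class mean in HSC-gated cells. It lies on the minus strand of chromosome 3 (chr3:115710433-115715072). HSC-gated cells had 34.6 CPM at day 3, 20.9 at day 10, and 41.5, 79.4 and 10.6 in m4528, m605 and m606 at day 17. Monocyte or dendritic cells had 0.0634 CPM in m4528, which is 1 count, and 2.15 and 1.84 in m605 and m606. Neutrophil cells had 0.820 and 0.865 CPM and megakaryocyte cells 8.96 in m4528, 0.368 in m606 and 0 counts in m4533, where 3 counts would be 0.294 CPM. These 3 classes lay below every HSC value. Erythroid cells had 21.9, 0.522 and 2.43 CPM, and the highest of these lay inside the HSC-gated range. The level in each of the 4 classes was lower than in the HSC-gated cells of the same animal in all mice that have both, but edgeR called none of the 4 differences: adjusted p was 0.0952 for monocyte or dendritic, 0.139 for megakaryocyte, 0.161 for neutrophil and 0.165 for erythroid cells. DESeq2 called all 4, with adjusted p between 2.97e-04 and 0.00333. In the erythroid comparison it called 14.2% of all genes. With each cell thinned before summing, erythroid cells had 45 CPM in m4528, 2.27 in m605 and 16.7 in m606. The HSC-gated cells of these mice then had 41.1, 44.4 and 0 CPM. The fitted erythroid difference was then -1.34 (edgeR quasi-likelihood, adjusted p = 0.644).

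The S1PR1 level of HSC-gated cells came from very few cells. Only 7.43%, 4.29%, 8.41%, 5.56% and 2.56% of them had more than 10 counts in m4539, m4533, m4528, m605 and m606, and 1 cell held 99.1% of the counts in m605, the mouse with the highest level. In all, 40 of 1010 kept cells had more than 10 counts, with a median of 49 counts among these 40. The mean share with more than 10 counts was 5.65% in HSC-gated and 5.79% in erythroid cells. At equal depth 5.14% ± 3.29 (n = 5) of HSC-gated and 7.34% ± 6.75 (n = 3) of erythroid cells had a count. The highest mean share at equal depth was thus in erythroid cells, within the spread, and in HSC-gated cells when m4528 was left out. In m4528 the share was 8.41% of 107 HSC-gated cells, with an exact 95% binomial interval of 3.92% to 15.4%, and 0 of 46 monocyte or dendritic cells, where the interval reached up to 7.71%. In m605 and m606 it was 0 of 28 and 0 of 30 monocyte or dendritic cells, with intervals up to 12.3% and 11.6%, beside 5.56% and 0% of the HSC-gated cells.

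Change with day was asked over all kept cells and within HSC-gated cells, and gave no call. Over all cells SELPLG was at 107 CPM at day 3, 159 at day 10, and 282, 154 and 163 CPM in m4528, m605 and m606 at day 17. Its fitted slope was 1.53 on the log2 scale per 14 days (SE 0.31, unadjusted p = 0.00466), with an adjusted p of 0.335 by edgeR, and DESeq2 called it (adjusted p = 0.0158) where it called 2.30% of genes. Of the 7 genes 0 were called over all cells, where 0% of 16740 genes were; 1 of the 7 and 1473 of all genes had an unadjusted p under 0.05. S1PR1 went from 29.2 CPM at day 3 and 9.77 at day 10 to 14.5, 5.70 and 3.63 CPM at day 17, and CXCR4 from 1.66 and 0.674 to 4.58, 7.62 and 6.08 CPM. HSC-gated cells were 92.1% of the cells at day 3 and at most 37.2% at day 17, and the part of this mix in the levels of all cells was not tested. Day 3 and day 10 are 1 mouse each, so a day cannot be told apart from a mouse there, and the fit, which also holds the count table as a term, has 2 residual degrees of freedom.

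Within HSC-gated cells, 0 of the 7 genes were called with day, where 0% of 13573 genes were called by edgeR and 0.0448% by DESeq2, and 0 of the 7 had an unadjusted p under 0.05. The 3 mice of day 17 were spread on both sides of day 3 for several members. ITGA4 was 38.8, 6.56 and 89.3 CPM in the 3 mice of day 17, a spread that takes in the 36.2 CPM of day 3. SELPLG was 156, 37.9 and 86.4 CPM at day 17, around the 110 CPM of day 3. Plates of 1 mouse differed as well: the 3 day 10 plates, numbered 13, 14 and 15, had 192, 136 and 50.2 CPM of ITGA4, and 0.477, 9.39 and 62.6 CPM of ITGA6. ITGB1 stayed within 81.5 and 118 CPM over the 5 mice, the narrowest relative range of the 7.

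**Figure D4:**
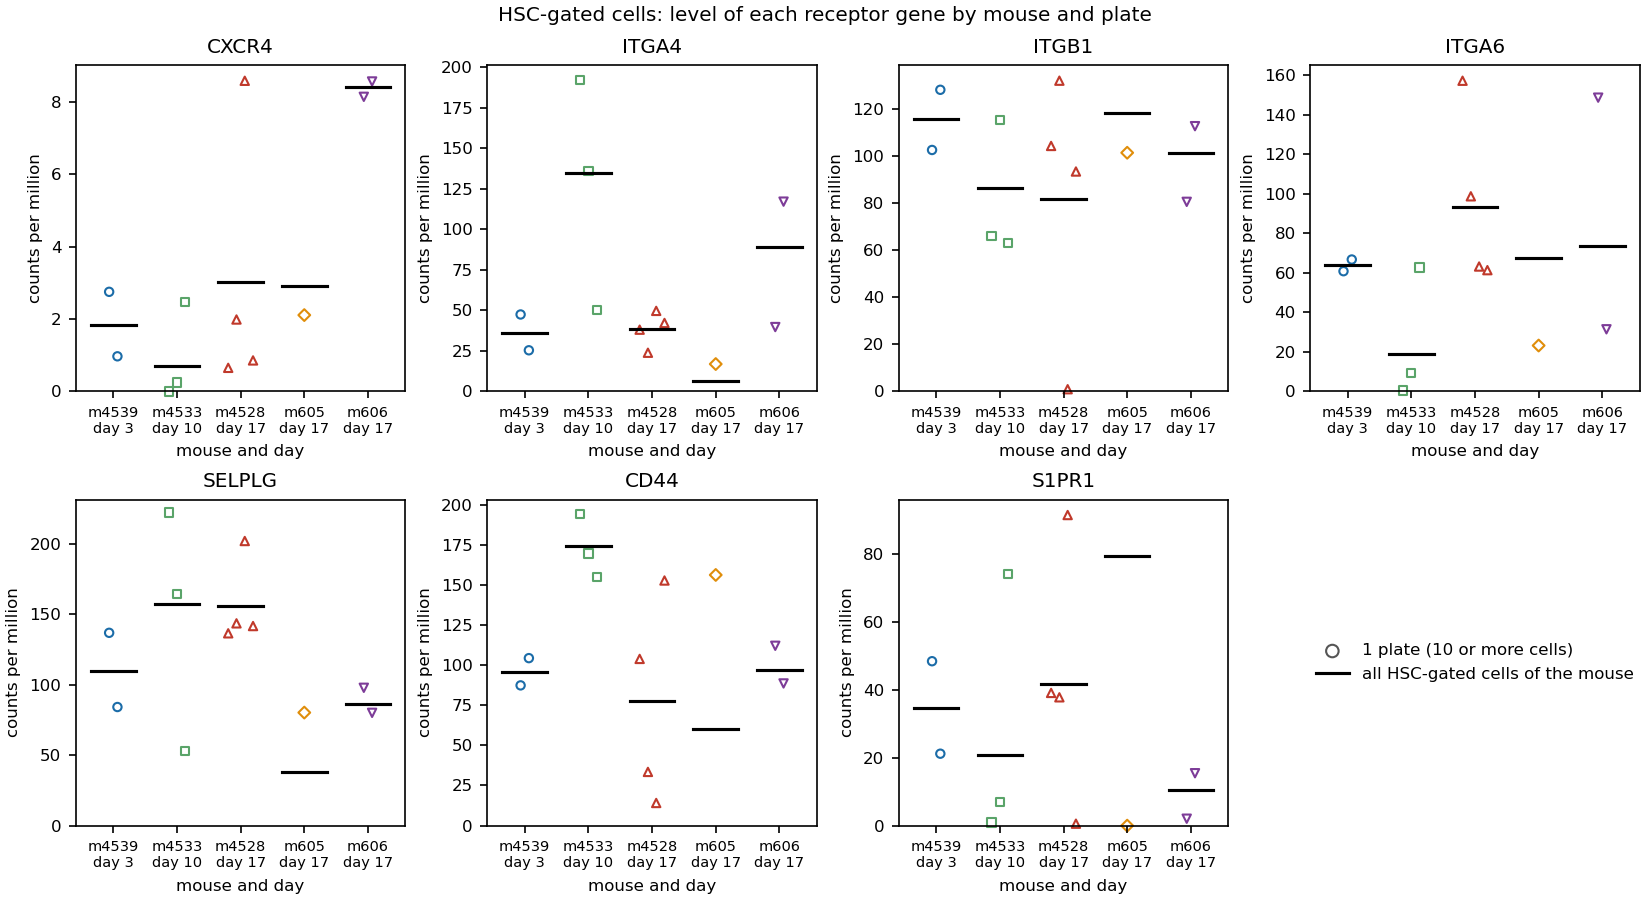
Level of each receptor gene in HSC-gated cells, in CPM (vertical axis, linear, from 0), by mouse in order of day (horizontal axis). Open points are plates with at least 10 HSC-gated cells and black lines the sum over all HSC-gated cells of the mouse; plates of 1 mouse spread widely, as for ITGA6 at day 10 (0.477 to 62.6) and ITGB1 in m4528 (0.920 to 132).

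Other genes of these pathways were read from 8 lists with 111 genes, of which 99 were tested between classes. The lists were chosen with earlier results of these data known. In erythroid against HSC-gated cells 7 of the 99 were called higher and 21 lower, or 28.3%, beside 5.17% higher and 5.80% lower over all genes. The junction and endothelial contact genes made up the largest group of these, with 7 of 12 lower and 0 higher. F11R, a junction adhesion molecule, fell by 6.80 on the log2 scale (SE 0.72, edgeR quasi-likelihood, adjusted p = 4.56e-05), from a mean of 121 CPM in HSC-gated to 0.909 CPM in erythroid cells. SELP, the selectin of platelets and endothelium that SELPLG binds, fell by 5.63 (SE 0.54, adjusted p = 2.42e-05). RGS18, which dampens G protein signalling from receptors such as CXCR4, fell by 2.88 (SE 0.25, adjusted p = 1.39e-05).

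In monocyte or dendritic against HSC-gated cells 8 were higher and 15 lower, or 23.2% beside 6.86% of all genes. F11R fell by 7.07 (SE 0.73, edgeR quasi-likelihood, adjusted p = 8.92e-05) and the tetraspanin CD81 by 2.31 (SE 0.24, adjusted p = 9.54e-05). KIT, the receptor for stem cell factor, fell by 2.40 (SE 0.31, adjusted p = 4.61e-04). In neutrophil against HSC-gated cells 2 were higher and 5 lower, or 7.07% beside 2.72% of all genes: SELP and F11R were among the lower, and RASGRP2, which activates the integrin switch Rap1, was higher by 3.07 (SE 0.54, adjusted p = 0.00782).

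In megakaryocyte against HSC-gated cells 7 were higher and 4 lower, or 11.1% beside 2.33% of all genes. The integrin activation and tetraspanin list held 4 of the 7 higher and 1 of the 4 lower. RAP1B, the Rap1 form of platelets that switches integrins on, rose by 2.22 (SE 0.24, edgeR quasi-likelihood, adjusted p = 9.28e-04), from a mean of 444 to 1916 CPM. The tetraspanin CD9 rose by 2.06 (SE 0.38, adjusted p = 0.0165) and RGS18 by 1.10 (SE 0.22, adjusted p = 0.0238), while the GTPase RAC2 fell by 0.997 (SE 0.22, adjusted p = 0.0356). In erythroid against megakaryocyte cells 3 were higher and 18 lower, or 21.2% beside 3.16% of all genes, led by RGS18, SELP, RAP1B and CD9, all lower. In fits of the 2 classes alone, 0 genes were called in either of these comparisons, where the shared fit called 358 and 485. In monocyte or dendritic against neutrophil cells SELP was higher by 4.58 (SE 0.65, adjusted p = 0.0105), and the tetraspanins CD63 (log2 difference -4.75, adjusted p = 7.49e-04) and CD81 (-1.65, adjusted p = 0.0201) were lower.

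The genes most like each receptor were taken as the 3 with the highest Pearson r of log2(CPM + 1) over the 21 sums of a class in a mouse, among 7156 genes with a mean of at least 20 CPM. The sums share mice, libraries and depth, and r is given as a description. SELPLG was nearest to MS4A6B (r = 0.879), LY6E (0.874) and H13 (0.848), and MS4A6B had a mean of 270 CPM in monocyte or dendritic cells and 55.1 in HSC-gated cells. CXCR4 was nearest to LGALS1 (0.834), MILR1 (0.831) and PLD4 (0.823), all highest in monocyte or dendritic cells. ITGA6 was nearest to INF2 (0.874), CLU (0.847) and AW112010 (0.840), ITGA4 to CLPTM1 (0.865), MTFR1 (0.828) and EIF2B1 (0.818), and S1PR1 to GM12216 (0.813) and TOB1 (0.800). ITGB1 was nearest to VWF (0.757), the platelet adhesion factor, at 176 CPM in megakaryocyte and 35.0 in HSC-gated cells, followed by AU019823 (0.748) and PPIF (0.738). CD44 had the weakest likenesses, with 2610318N02RIK (0.734), ATP6AP2 (0.730) and RHOG (0.703).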

How the data were processed

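Single Lin- Tom+ mouse cells were sequenced with a modified Smart-seq2 of transcript 3′ ends, per the labels' protocols. Values are whole-number counts for each gene in each well, as deposited in 2 tables. The build is GRCm38, per the submitters' processing notes; the aligner, the counter and whether a count is a read or a molecule are left unstated in the sources used here. The 2 tables hold 22971 and 34486 genes, of which 22842 are in both. Barcodes with at least 500 genes and 10000 counts were kept. A marker was on in a cell at 100 CPM and more than 10 counts; a cell was gated to the class with the highest share of markers on, given at least 3 of them and a lead of 0.1. The members and lists were chosen with earlier results of these data known.

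Counts were summed per class and mouse (at least 10 cells, 21 sums) and tested with edgeR 4.0.16 (TMM scaling, filterByExpr, quasi-likelihood) with mouse and class as terms, and per mouse with day and count table as terms. SE is the log2 difference over the square root of F. The mouse is the replicate and the block, since sums of classes come from the same animal: deviations of same-mouse sums correlated with a median r of 0.198 (0.0985 to 0.418, 40 pairs), those of different mice with -0.0697 (140 pairs). Plate numbers that recur in different mice pair nothing. The 7 contrasts planned came to 6, since no mouse had 10 basophil or mast cells. Intervals on shares are exact 95% binomial and cover counting error only. Doublets were not called, since cells were sorted singly into wells; leaving out cells of high totals was tried. Named are all 7 members, in each contrast the 4 genes of the pathway lists with the lowest p among those called, and the 3 genes most like each member; items withheld from this text are not reported here. Alternatives used DESeq2 1.42.0, R 4.3.3 and Python 3.11.15. Scripts were tested on simulated counts. Upstream sequences came from RefSeq tables (GRCm38.p6), which had entries for Cxcr4, Itga4, Itgb1 and Cd44; Itga6, Selplg and S1pr1 are named only. Gene positions are from GENCODE M21.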

Additional observations from a re-analysis of the deposited data

Results flagged for a closer look

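Within mouse m4528, 1 of 4 plates stood far from the others for 2 receptor genes in HSC-gated cells. CXCR4 was at 8.59 CPM on plate 8, where the lowest of the 4 plates had 0.651 and the median was 1.42 CPM. The plate 8 value was 28 counts in 3 of 20 cells, and plates 6, 7 and 9 held 2, 6 and 3 counts. Over the 4 plates 1 cell held 66.7% of the 39 CXCR4 counts, so the CXCR4 value rests largely on 1 cell. SELPLG was at 202 CPM on plate 8, where the lowest had 136 and the median was 143 CPM. In both the gap to the nearest plate, as a share of the range over the 4 plates (0.832 and 0.892), was above Dixon's 95% critical value for 4 values. In all 35 groups of plates or mice were examined in this way and 2 had such a value; chance gives about 1 in 20. The plate is the one with low ITGB1. No cause was tested.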

How the results depend on the processing

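Where a receptor gene had an unadjusted p under 0.05 in a comparison, 333 values under an alternative gave the same call and direction, 35 lost and 24 gained a call, and 0 reversed. The 35 losses all fell on the called differences, each of which stayed called in 12 to 18 of 21 alternatives. The 333 also hold differences that were called neither in the main fit nor in the alternative. Differences with a higher unadjusted p did reverse: without m4539 the slope with day over all cells went from 1.15 to -0.97 for ITGA4, from -0.42 to 2.36 for ITGA6 and from -0.88 to 1.31 for S1PR1. The number of receptor genes called was 0 for megakaryocyte, 2 for erythroid, 0 for neutrophil and 2 for monocyte or dendritic against HSC-gated cells, 2 for erythroid against megakaryocyte, 0 for monocyte or dendritic against neutrophil cells and 0 with day. With DESeq2 it was 2 for megakaryocyte, 3 for erythroid, 3 for neutrophil, 4 for monocyte or dendritic, 1 for monocyte or dendritic against neutrophil, and 1 with day over all cells. With no replicate block, the mouse term being left out, it was 1 for erythroid, 1 for monocyte or dendritic and 1 for erythroid against megakaryocyte. In fits of the 2 classes alone these 3 were 0, 0 and 0. With sums of at least 5 cells it was 1 for erythroid, 2 for neutrophil, 1 for monocyte or dendritic and 0 for erythroid against megakaryocyte. With day 17 alone it was 1 for neutrophil and 1 for erythroid against megakaryocyte. With the plate of 2 mice as a sample it was 3 for erythroid, 2 for neutrophil, 3 for monocyte or dendritic and 1 for monocyte or dendritic against neutrophil, with the limit of 500 genes alone 2 for neutrophil, and with thinned cells 3 for monocyte or dendritic and 1 for monocyte or dendritic against neutrophil. Erythroid against megakaryocyte gave 0 with a score lead of 0.2 and 0 without 74 cells of high totals; the latter, like leaving out plate 8 or 3 cells with other markers, was chosen after seeing the data. Leaving out 1 mouse gave 0 to 2 for erythroid, 0 to 1 for neutrophil, 0 to 2 for monocyte or dendritic and 0 to 2 for erythroid against megakaryocyte. The class with the highest share of cells was the same for 4 of 7 genes by unthinned cells with more than 10 counts, and for 4 to 7 without 1 mouse. The class with the highest level was the same for 5 of 7 with thinned cells, where ITGB1 was highest in ungated and CD44 in monocyte or dendritic cells, and for 6 without m4539 or m605. The cause of these changes was not tested. Over all genes the calls ranged over the alternatives from 0 to 1864 for megakaryocyte (358 as reported), 257 to 3232 for erythroid (1685), 2 to 1872 for neutrophil (418), 117 to 2421 for monocyte or dendritic (1054), 0 to 1460 for erythroid against megakaryocyte (485) and 0 to 547 for monocyte or dendritic against neutrophil cells (30). The basophil or mast comparison had a value only with sums of at least 5 cells, where 0 of 7 receptor genes were called.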
